A study of Mus musculus with 2 samples.

Results

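The cells described here were a small set of mouse bone marrow cells that carried transcripts of Zbtb16, Tcf7, Tox2 and Gata3, transcription factors of early innate lymphoid cells, without the surface complex of T cells. They were chosen from the measured counts: a cell entered when its transcripts, counted by unique molecular identifiers (UMIs), of Zbtb16, Tcf7, Tox2 and Gata3 summed to at least 4, with at least 1 of Zbtb16 or Tcf7. It also had to hold at most 1 UMI of Cd3d, Cd3e and Cd3g together, at most 3 of Cd79a and Vpreb3, and fewer than 3 of Klrd1, Ncr1, Gzma and Klrb1c. By this rule 361 of 11214 cells were members, 118 of 4839 in the Listeria library and 243 of 6375 in the naive library. They are called innate lymphoid progenitor-like cells below.

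The study sequenced single haematopoietic stem cells (HSCs), which give rise to every blood lineage, from the marrow of C57BL/6J mice described as wild type. For the Listeria library, marrow was taken 6 weeks after a challenge with Listeria monocytogenes, a bacterium that lives inside host cells, and the mice of the naive library had no treatment. Both groups are described as 6 to 8 weeks old, without saying whether at challenge or at sampling, and how many animals each library holds and which gate sorted the HSCs are not given in the sources used here. The deposited names of the Listeria files refer to a knockout and those of the naive files to a wild type, whereas the labels describe both as wild type. The labels were followed here, and a difference in genotype cannot be told apart from the challenge. With 1 library per group there was no replicate and no test, so every interval below is a 95% interval of counting error only.

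The Listeria library held 43895966 UMIs and the naive library 64619150, of which 89.4% in the Listeria and 78.6% in the naive library lay in the cells kept, with medians of 7239 and 6972 UMIs per cell. Of the cell barcodes, 14 occurred in both libraries, 1 of which marked a progenitor-like cell of the Listeria library and a cell of another kind in the naive library. Cells other than stem cells were present in both libraries: 377 Listeria and 1312 naive cells had at least 10 UMIs of Cd79a and Vpreb3 (B-lineage cells), 37 Listeria and 64 naive cells had at least 3 UMIs of the Cd3 genes (T cells), and 49 Listeria and 111 naive cells had at least 3 UMIs of Klrd1, Ncr1, Gzma and Klrb1c (NK cells). The main comparison was with Flt3-positive progenitors, 353 Listeria and 510 naive cells with at least 2 UMIs of Flt3 and at least 1 of Kit or Cd34 that met the same 3 upper limits.

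Innate lymphoid cells are lymphocytes without rearranged antigen receptors that reside mainly in tissues and release cytokines early in a response. In mouse bone marrow they arise from lymphoid progenitors through a stage marked by the zinc finger factor PLZF, the product of Zbtb16, and by TCF-1, the product of Tcf7. Most of these cells need signals through the interleukin 7 receptor, and TOX, ID2, NFIL3, GATA3 and BCL11B act at successive steps or in particular branches. Germline transcripts of T cell receptor constant regions can be made in such cells before or without rearrangement of the locus.

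Progenitor-like cells made up 2.44% of Listeria cells (interval 2.02 to 2.91) and 3.81% of naive cells (interval 3.36 to 4.31). The log2 ratio of these shares, Listeria over naive, was -0.64 (-0.97 to -0.32), so the share was 1.56 times as large in the naive library. Flt3-positive progenitors took 7.29% of Listeria and 8.00% of naive cells, a log2 ratio of -0.13 (-0.33 to 0.07). NK cells took 1.01% of Listeria and 1.74% of naive cells (log2 ratio -0.78, -1.30 to -0.28), and B-lineage cells 7.79% of Listeria and 20.6% of naive cells (-1.40, -1.57 to -1.24). Shares in 1 library add up to a fixed whole, and the sort that preceded sequencing was not described, so the part of either in these ratios was not tested.

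**Figure D1:**
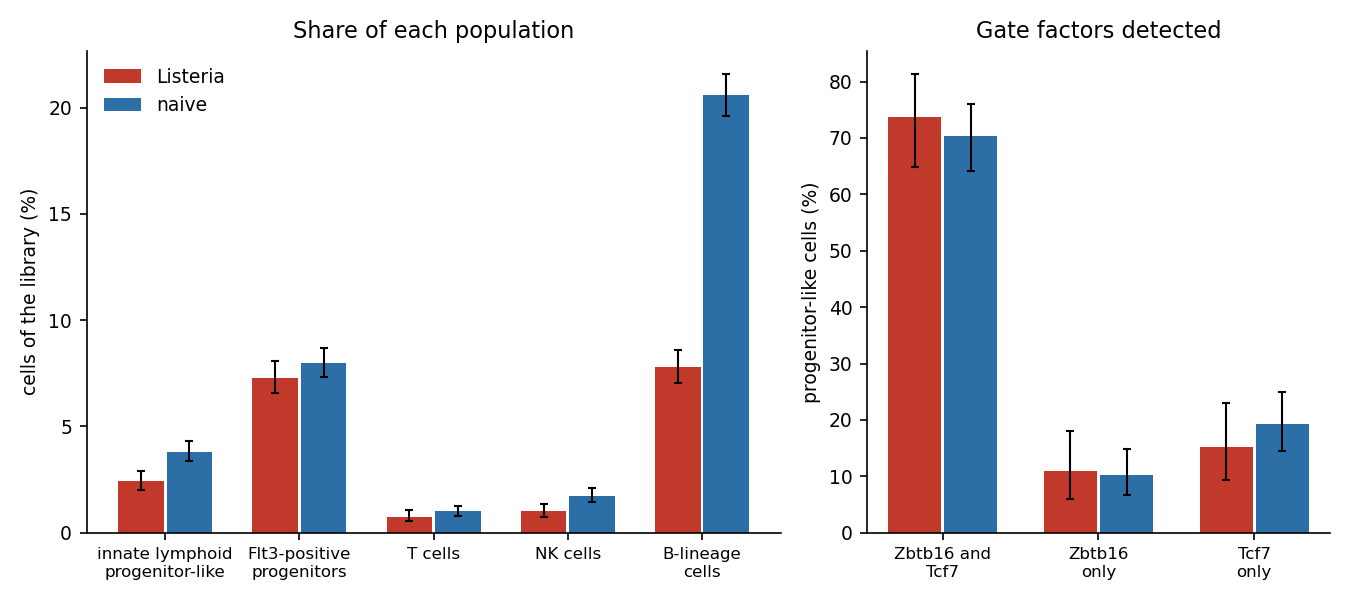
Left, share of each population among all cells of its library in percent; right, share of progenitor-like cells in which Zbtb16 and Tcf7 were both detected or only 1 of them was. Bars are the single Listeria (red) and naive (blue) libraries and lines are 95% Clopper-Pearson intervals; progenitor-like cells took 2.44% of the Listeria and 3.81% of the naive library, while the shares split by gate factor had overlapping intervals.

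The gate genes are given as a description, since they chose the cells. Zbtb16 had 566 CPM (UMIs of the gene per 1000000 UMIs, summed over the cells of a population) in Listeria and 522 CPM in naive progenitor-like cells, and Tcf7 had 506 CPM in Listeria and 642 CPM in naive progenitor-like cells. Tox2 stood at 135 CPM in Listeria and 192 CPM in naive cells of the set, and Gata3 at 136 CPM in Listeria and 187 CPM in naive cells. A cell of the set held from 0 to 25 UMIs of Zbtb16 in the Listeria library and from 0 to 29 in the naive library, with medians of 4 and 3. The gate sum had a median of 9.5 UMIs in Listeria and 10 in naive members, with highest values of 40 and 59, so most cells lay well above the minimum. In mm10 the genes lie at chr9:48654297-48836222 (Zbtb16, minus strand), chr11:52252371-52283014 (Tcf7, minus strand), chr2:163203125-163324170 (Tox2, plus strand) and chr2:9857078-9890034 (Gata3, minus strand).

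At the edge of the gate, 16 Listeria and 31 naive cells had a sum of exactly 4, and 25 Listeria and 55 naive cells had a sum of 3 and stayed out. Trbc1, which the rule did not use, stood at 812 CPM in Listeria and 780 CPM in naive cells with a sum of 4, and at 388 CPM in Listeria and 347 CPM in naive cells with a sum of 3. Cd34, a surface protein of stem and progenitor cells, ran the other way, at 30.6 CPM in Listeria and 43.7 CPM in naive cells with a sum of 4 and at 111 CPM in Listeria and 116 CPM in naive cells with a sum of 3. The sum and detection rule alone took 136 Listeria and 324 naive cells. The NK limit then removed 12 Listeria and 52 naive cells, the Cd3 limit 5 and 24, and the B limit 4 and 17, some of them under more than 1 limit.

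The markers given for these cells outside the gate were present. A UMI of Trbc1, the constant region of the T cell receptor beta chain, was found in 83.9% of Listeria and 81.1% of naive progenitor-like cells, against 1.06% of Listeria and 2.52% of naive B-lineage cells, whose median depth was greater (10019 and 9659.5 UMIs, against 7762 and 7344 in the progenitor-like cells). After thinning every cell to 2500 UMIs, these shares were 71.2% in Listeria and 70.8% in naive progenitor-like cells. Bcl11b, a factor of T cells and of group 2 innate lymphoid cells, had a UMI in 24.6% of Listeria and 23.9% of naive members, against 0.53% of Listeria and 0.38% of naive B-lineage cells. Other markers of T cells were at or near 0: Cd4 and Cd8a had no UMI in members of either library, and Trac, the constant region of the alpha chain, had 4 UMIs in Listeria and 5 in naive members. Markers of NK cells, B cells and myeloid cells were found in part of the members and are described further below.

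Transcripts of T cell receptor constant regions, which the rule did not use, set progenitor-like cells apart from Flt3-positive progenitors but were shared with T and NK cells. Trbc1 and Trbc2 together had 1339 CPM in Listeria and 1246 CPM in naive progenitor-like cells, against 1105 CPM in Listeria and 1219.8 CPM in naive T cells and 706 CPM in Listeria and 1209 CPM in naive NK cells. Trbc1 stood at 1214 CPM in Listeria and 1037 CPM in naive progenitor-like cells, against 0 CPM in Listeria and 3.75 CPM in naive Flt3-positive progenitors. With 0 UMIs read as a limit of 3 counts, Trbc1 was at least 1228-fold higher in the Listeria library, and it was 276-fold higher in the naive library. Trbc1 alone was also higher than in the T cells of the same libraries, at 426 CPM in Listeria and 613 CPM in naive T cells, and than in NK cells, at 466 CPM in Listeria and 887 CPM in naive NK cells. In RNA outside cells, read from barcodes with 1 to 50 UMIs, Trbc1 stood at 58.1 CPM in the Listeria and 84.5 CPM in the naive library.

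The second beta constant gene, Trbc2, behaved differently. It stood at 126 CPM in Listeria and 209 CPM in naive progenitor-like cells, against 680 CPM in Listeria and 607 CPM in naive T cells. Trbc1 thus took 90.6% of the UMIs of both genes in Listeria progenitor-like cells (interval 89.0 to 92.1) and 83.2% in naive ones (81.7 to 84.7), against 38.5% in Listeria T cells (31.7 to 45.6) and 50.2% in naive T cells (45.5 to 55.0). NK cells lay between, with 65.9% in the Listeria library (59.2 to 72.1) and 73.4% in the naive library (70.4 to 76.1). Both genes are near copies, and a UMI can be split between them, so the end of each coding sequence is shown here because it holds most of the bases that tell them apart. The sequences are the last 128 coding bases of GENCODE vM21 transcripts on the plus strand of mm10, and capitals mark the bases at which the 2 genes differ.
Trbc1: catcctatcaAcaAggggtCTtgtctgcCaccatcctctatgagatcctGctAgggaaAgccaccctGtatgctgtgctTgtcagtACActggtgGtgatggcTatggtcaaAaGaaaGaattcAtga
Trbc2: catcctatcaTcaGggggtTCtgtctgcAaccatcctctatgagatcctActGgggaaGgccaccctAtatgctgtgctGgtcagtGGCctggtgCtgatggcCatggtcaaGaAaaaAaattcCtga
The Trbc1 stretch joins chr6:41539229-41539335 to chr6:41539645-41539665, and the Trbc2 stretch joins chr6:41547772-41547878 to chr6:41548161-41548181. It holds 19 of the 23 mismatches over 521 coding bases, while the first exon of 375 bases holds 1. The 3′ untranslated regions behind these stretches, 216 bases in Trbc1 and 171 bases in Trbc2, share no run of 30 bases. Libraries of this kind read the 3′ end of a transcript, where the genes can be told apart, but how reads in the first exon were assigned is not given in the sources used here.

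Constant regions of the gamma and delta chains were present as well, with variable segments near 0. The listed constant regions reached the minimum level only through the progenitor-like cells, so they are given by their values and not counted. The constant regions of the gamma chain, 4 genes summed, had 202 CPM in Listeria and 130 CPM in naive progenitor-like cells, no UMI in Flt3-positive progenitors of either library, and 111 CPM in Listeria and 80.4 CPM in naive T cells. Tcrg-C4 had 95.4 CPM in Listeria and 86.8 CPM in naive members, at least 96.5-fold and at least 116-fold above Flt3-positive progenitors. Trdc, the delta constant region, had 33.1 CPM in Listeria and 24.7 CPM in naive members, against 387 CPM in Listeria and 308 CPM in naive T cells. The 176 variable segment genes together had 12.7 CPM in Listeria and 13.6 CPM in naive members (13 and 27 UMIs), against 177 CPM in Listeria and 88.7 CPM in naive T cells. Joining and diversity segments had no UMI in any population, T cells included, so their absence says nothing here about rearrangement.

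The Cd3 genes, which the gate limited, had 3.89 CPM in Listeria and 4.04 CPM in naive progenitor-like cells, against 1177 CPM in Listeria and 1056 CPM in naive T cells. Among the members without any Cd3 UMI, 114 Listeria and 235 naive cells, a UMI of Trbc1 or Trbc2 was present in 85.1% of Listeria (77.2 to 91.1) and 86.0% of naive cells (80.8 to 90.1). Members with 1 Cd3 UMI were 4 Listeria and 8 naive cells.

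Transcription factors of innate lymphoid cells outside the gate were higher in progenitor-like cells than in Flt3-positive progenitors, but were shared with T and NK cells. After thinning to 2500 UMIs, at least 3 UMIs of this list were found in 74.6% of Listeria and 80.7% of naive members. The shares were 73.0% in Listeria and 75.0% in naive T cells, and 73.5% in Listeria and 80.2% in naive NK cells. A gene was tested when it reached 10 CPM in 1 of the populations and 20 UMIs over both; 379 of 8302 (4.57%) were more than 2-fold higher in the Listeria library and 425 of 8212 (5.18%) in the naive library. Of the 10 listed factors, 9 were more than 2-fold higher in each library, with a median log2 ratio of 2.61 in the Listeria and 2.26 in the naive library, beside 0.00 and 0.09 over all genes tested. Among the 9, Bcl11b and Lef1 reached the minimum level only through the progenitor-like cells in both libraries. The exception was Maf, with log2 ratios of 0.13 in the Listeria (-0.63 to 0.84) and 0.97 in the naive library (0.47 to 1.47).

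Tox, whose product is needed for the common progenitor of innate lymphoid cells, had 242 CPM in Listeria and 259 CPM in naive progenitor-like cells, against 27.4 CPM in Listeria and 33.5 CPM in naive Flt3-positive progenitors. The log2 ratio was 3.15 (2.78 to 3.52) in the Listeria and 2.95 (2.67 to 3.23) in the naive library. Rora, a nuclear receptor required in group 2 cells, had 502 CPM in Listeria and 722 CPM in naive members, against 82.7 CPM in Listeria and 105 CPM in naive Flt3-positive progenitors. Id2, an inhibitor of E proteins and a defining factor of the lineage, had 246 CPM in Listeria and 290 CPM in naive members, against 28.3 CPM in Listeria and 75.3 CPM in naive Flt3-positive progenitors. Bcl11b was almost confined to the members in this comparison, at 100 CPM in Listeria and 92.9 CPM in naive members, against 0.33 CPM in Listeria and 2.25 CPM in naive Flt3-positive progenitors. Ets1, Nfil3, Ikzf2, Lef1 and Runx3 were higher by log2 ratios between 1.08 and 3.81 over both libraries.

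**Figure D2:**
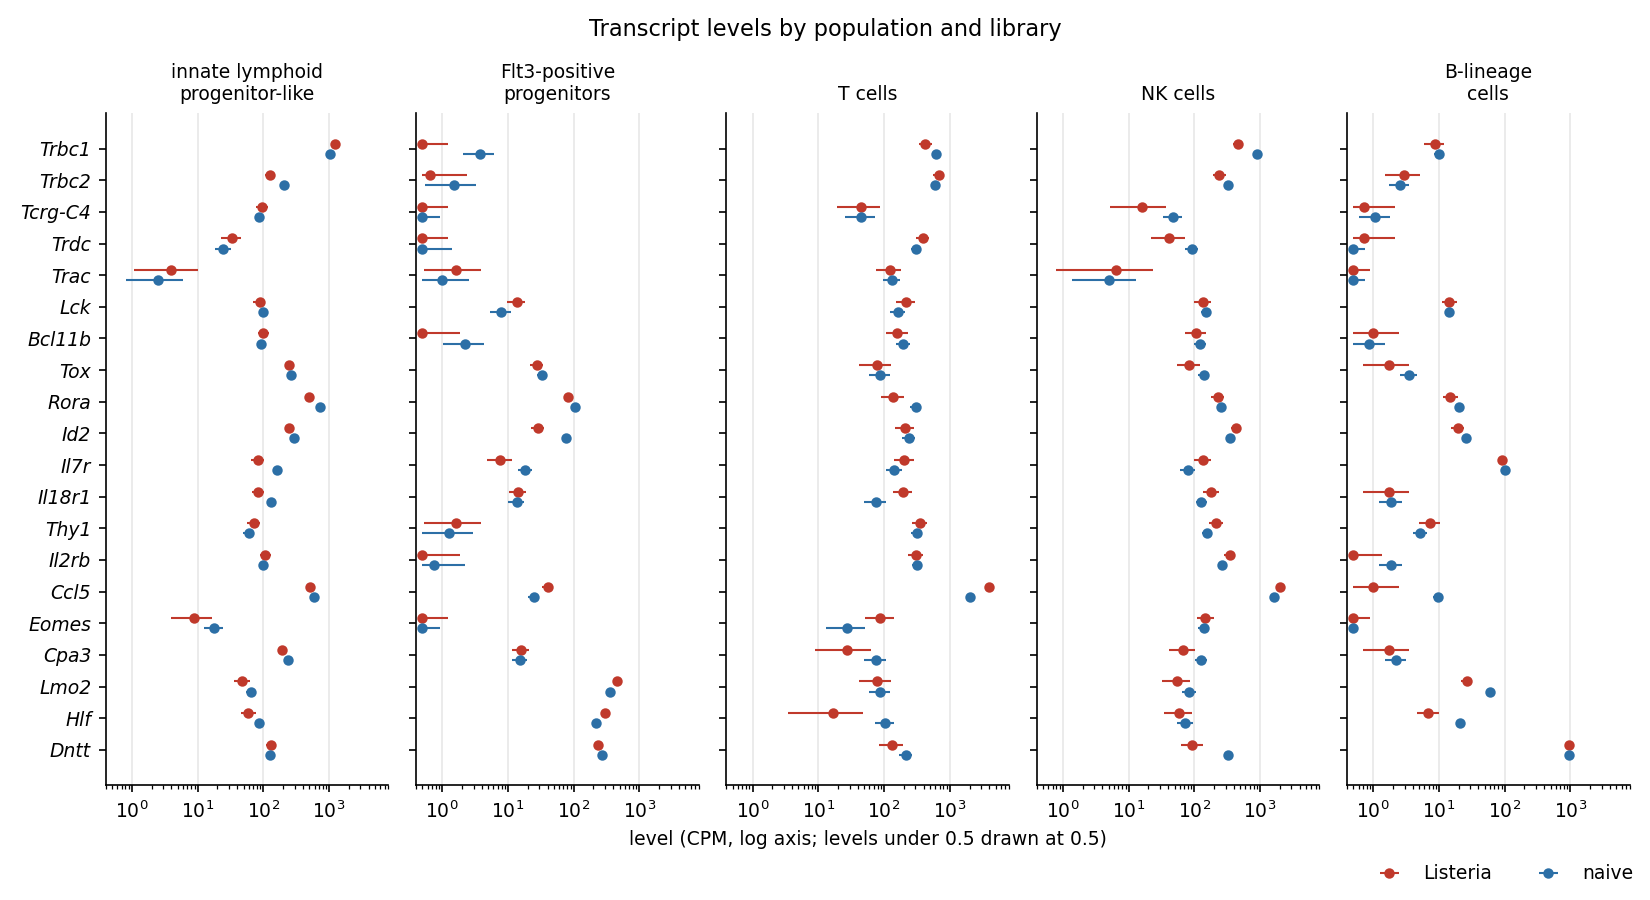
Levels of 20 genes in CPM (log axis, values under 0.5 drawn at 0.5) in 5 populations of the Listeria (red) and naive (blue) libraries, with lines for 95% Poisson intervals. Trbc1 was at 1214 and 1037 CPM in progenitor-like cells, above T and NK cells, and Lmo2 and Hlf were higher in Flt3-positive progenitors.

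Surface genes of innate lymphoid progenitors followed the same direction, and they too were shared with T and NK cells. After thinning to 2500 UMIs, at least 3 UMIs of this list were found in 61.0% of Listeria and 56.4% of naive members. The shares were 83.8% in Listeria and 79.7% in naive T cells, and 81.6% in Listeria and 69.4% in naive NK cells. Of 10 listed, 8 were tested and 7 of them were more than 2-fold higher in each library, beside 4.57% of all genes in the Listeria and 5.18% in the naive library, but Thy1 and Pdcd1, and in the Listeria library Il7r and Cd7, reached the minimum level only through the progenitor-like cells. Il7r, the receptor chain through which interleukin 7 sustains these cells, had 81.8 CPM in Listeria and 164 CPM in naive progenitor-like cells, against 7.58 CPM in Listeria and 18.3 CPM in naive Flt3-positive progenitors. Itga4, the alpha chain of the integrin that retains progenitors in marrow and gut, had 838 CPM in Listeria and 712 CPM in naive members, with log2 ratios of 2.49 (2.32 to 2.66) and 1.89 (1.76 to 2.01). Thy1 had 72.0 CPM in Listeria and 60.1 CPM in naive members, against 1.65 CPM in Listeria and 1.25 CPM in naive Flt3-positive progenitors. Pdcd1, which encodes PD-1 and marks committed innate lymphoid progenitors in mice, was found in 11% of Listeria and 13.2% of naive members, against 0% of Listeria and 0.152% of naive B-lineage cells. Its level was 21.4 CPM in Listeria and 23.7 CPM in naive members, with no UMI in Flt3-positive progenitors, against which it was at least 21.7-fold higher in the Listeria and at least 31.6-fold higher in the naive library. Cxcr6, a chemokine receptor of later progenitors, had 1 UMI in Listeria and 10 UMIs in naive members and was too low to be tested. Ltb, a lymphotoxin chain, was the listed gene that did not pass 2-fold, and it lay on opposite sides of 0, at a log2 ratio of -0.53 (-0.92 to -0.16) in the Listeria and 0.35 (0.13 to 0.57) in the naive library.

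Genes of mature branches were present unevenly. The natural killer and group 1 genes outside the gate are given by their values, since several reached the minimum level only through the progenitor-like cells. After thinning to 2500 UMIs, at least 3 UMIs of this list were found in 26.3% of Listeria and 35.4% of naive members. The shares were 2.27% in Listeria and 0.98% in naive Flt3-positive progenitors, and 83.7% in Listeria and 64.0% in naive NK cells. Il2rb, the interleukin 2 and 15 receptor chain, had 107 CPM in Listeria and 100 CPM in naive members, against 0.33 CPM in Listeria and 0.75 CPM in naive Flt3-positive progenitors and 347 CPM in Listeria and 263 CPM in naive NK cells. Ccl5, a chemokine, had 506 CPM in Listeria and 592 CPM in naive members, against 1997 CPM in Listeria and 1626 CPM in naive NK cells. It was found in 43.2% of Listeria and 39.9% of naive members, so its level came from a part of the cells, against 1.06% of Listeria and 2.21% of naive B-lineage cells. Txk, a kinase of T and NK cells, had 49.6 CPM in Listeria and 83.8 CPM in naive members. Eomes, a factor of NK cells, stood at 8.76 CPM in Listeria and 17.7 CPM in naive members, against 148 CPM in Listeria and 140 CPM in naive NK cells, and Tbx21, Prf1, Klrk1 and Klre1 had at most 3 UMIs each in either library's members. The gate let cells with up to 2 UMIs of its 4 NK genes remain, so cells of that lineage could be among the members, and their part was not tested.

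Group 2 genes were low, and most of the 10 listed were too low to be tested in the Listeria library. Hs3st1, a sulphotransferase, had 22.4 CPM in Listeria and 14.6 CPM in naive members, against 1.32 CPM in Listeria and 1.75 CPM in naive Flt3-positive progenitors. Areg, the growth factor amphiregulin, had 10.7 CPM in Listeria and 13.6 CPM in naive members, against 4.94 CPM in Listeria and 15.5 CPM in naive Flt3-positive progenitors. Il17rb, a receptor for interleukin 25, had 9.73 CPM in Listeria and 32.3 CPM in naive members, and Arg1, an arginase of these cells, had 12.7 CPM in Listeria and 22.2 CPM in naive members. Il1rl1, the interleukin 33 receptor, had no UMI in Listeria members, which allows up to 2.92 CPM, and 16 UMIs (8.08 CPM) in naive members. The cytokine genes Il13 and Il5 had 1 UMI each in Listeria members and none in naive members. Group 3 genes had no tested member above 2-fold: the cytokine gene Il22 had 0 UMIs in Listeria and 1 UMI in naive members, and Tmem176b was lower than in Flt3-positive progenitors by log2 ratios of -1.69 in the Listeria and -1.09 in the naive library.

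Part of the T cell signalling machinery was present as well. Of 15 listed genes 9 were tested, and Trat1, Skap1 and Themis were among those that reached the minimum level only through the progenitor-like cells, so no count is given. Cd28, a costimulatory receptor that Flt3-positive progenitors also expressed, had log2 ratios of 1.95 in the Listeria and 1.77 in the naive library, and Lat, an adaptor, had 1.18 and 0.83. Lck, the kinase that starts receptor signalling, had 87.6 CPM in Listeria and 98.9 CPM in naive members, against 13.5 CPM in Listeria and 7.75 CPM in naive Flt3-positive progenitors. Trat1, a transmembrane adaptor of the receptor, reached 68.1 CPM in Listeria and 63.6 CPM in naive members, above its 5.53 CPM in Listeria and 30.5 CPM in naive T cells. Fyn, a kinase related to Lck, lay below its level in Flt3-positive progenitors in both libraries, with intervals that include 0. Zap70, which couples the assembled receptor, had 4 UMIs in members of each library, and Cd5 had 0 UMIs in Listeria and 5 UMIs in naive members.

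Of 7 listed genes of the Notch pathway and of early T cells only 3 were tested, and they did not share a direction. Hes1, a target of Notch, had log2 ratios of 0.04 in the Listeria and 0.26 in the naive library. Notch1 had 30.2 CPM in Listeria and 26.8 CPM in naive members, against 43.2 CPM in Listeria and 53.5 CPM in naive Flt3-positive progenitors, more than 2-fold lower in the naive library. Ptcra, the surrogate alpha chain of thymocytes, had no UMI in members of either library, and Dtx1 and Notch3 had none. The gene more than 2-fold higher in both libraries was Ccr9, a homing receptor for thymus and gut, with 58.4 CPM in Listeria and 84.3 CPM in naive members, against 6.59 CPM in Listeria and 21.0 CPM in naive Flt3-positive progenitors. It was found in 13.6% of Listeria and 16.5% of naive members, against 1.33% of Listeria and 2.67% of naive B-lineage cells.

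Among 13 cytokine receptor and kinase genes, 4 were more than 2-fold higher (beside 4.57% of all genes in the Listeria and 5.18% in the naive library) and 3 more than 2-fold lower (beside 11.2% and 7.16%) in each library. Of those higher, Il2rb and Il12rb1, and in the Listeria library Il7r, reached the minimum level only through the progenitor-like cells. Il18r1, the binding chain of the interleukin 18 receptor, was among the higher ones, with 83.7 CPM in Listeria and 129 CPM in naive members and log2 ratios of 2.56 (2.02 to 3.13) and 3.25 (2.82 to 3.70). Its partner chain Il18rap lay lower than in Flt3-positive progenitors, at 11.7 CPM in Listeria and 24.7 CPM in naive members, against 37.6 CPM in Listeria and 56.5 CPM in naive Flt3-positive progenitors. Il2rg, the common gamma chain, differed by log2 ratios of 0.10 in the Listeria and 0.48 in the naive library. Of the homing and adhesion genes, 5 of 11 tested were more than 2-fold higher and 2 lower in the Listeria library, and 5 of 12 higher and 1 lower in the naive library, beside the same shares of all genes. Among those higher, Ccr9 and Gpr183 in the Listeria and Ccr7 in the naive library reached the minimum level only through the progenitor-like cells. Itgal, the alpha chain of LFA-1, had log2 ratios of 1.70 in the Listeria and 2.17 in the naive library, and S1pr1, the receptor for egress from tissues, had -1.41 and -1.89.

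Among genes of at least 50 CPM in 1 of the populations in both libraries, and leaving out gate genes and genes with over 20% of their UMIs in 1 cell of either population, the largest ratios in the weaker library were those of Tcrg-C4, Thy1, Cpa3, Clec2i, Tox, Bcl2, Lck, Ctsw, Rora, Il18r1, Fam189b and Ap3s1. Cpa3, a carboxypeptidase of mast cells, had 192 CPM in Listeria and 237 CPM in naive members, against 15.8 CPM in Listeria and 15 CPM in naive Flt3-positive progenitors. The other mast cell and basophil genes listed, Mcpt8, Prss34, Ms4a2 and Fcer1a, had at most 1 UMI in the members of either library, while Cpa3 was found in 50% of Listeria and 53.5% of naive members, against 0.796% of Listeria and 1.75% of naive B-lineage cells. Bcl2, which protects lymphocytes from cell death, had 379 CPM in Listeria and 407 CPM in naive members, with log2 ratios of 2.73 (2.47 to 3.0) and 2.82 (2.61 to 3.04). Clec2i, a lectin-like surface protein, had 109 CPM in Listeria and 90.3 CPM in naive members, against 4.61 CPM in Listeria and 8.25 CPM in naive Flt3-positive progenitors. Ctsw, a protease of cytotoxic lymphocytes, had 86.6 CPM in Listeria and 86.3 CPM in naive members, below its 360 CPM in Listeria and 223 CPM in naive NK cells.

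Stem cell genes lay on the other side. In all, 928 genes (11.2%) in the Listeria and 588 (7.16%) in the naive library were more than 2-fold lower than in Flt3-positive progenitors. Of 12 stem and multipotent genes, 11 in the Listeria and 9 in the naive library were more than 2-fold lower, with medians of -2.18 and -1.38. Lmo2, a factor of stem cells and early progenitors, had 47.7 CPM in Listeria and 65.6 CPM in naive members, against 450 CPM in Listeria and 361 CPM in naive Flt3-positive progenitors. Hlf, a factor of long-term stem cells, had log2 ratios of -2.33 (-2.73 to -1.95) in the Listeria and -1.33 (-1.57 to -1.09) in the naive library. Myb, a factor of proliferating progenitors, was the listed gene on the other side of 0, with log2 ratios of 0.44 in the Listeria and 0.28 in the naive library. The lowest genes by the rule were Adgrl4, Lmo2, Egfl7, Ifitm1, Ifitm3, Ifitm2, Rab38, Sh2d5, Muc13, Plppr3, Plcb2 and Ctla2a. Ctla2a, a cysteine protease inhibitor, had 915 CPM in Listeria and 1105 CPM in naive members, against 3472 CPM in Listeria and 3648 CPM in naive Flt3-positive progenitors. Ifitm2 and Ifitm3 are close copies, and their split of UMIs is uncertain.

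Of the genes that chose the Flt3-positive progenitors, Kit was found at similar levels in both populations and Cd34 and Flt3 were not, which is given as a description. Kit, the stem cell factor receptor, had 239 CPM in Listeria and 158 CPM in naive members, against 247 CPM in Listeria and 205 CPM in naive Flt3-positive progenitors. Cd34 had 48.7 CPM in Listeria and 53.0 CPM in naive members, and Flt3, the cytokine receptor of lymphoid priming, had 26.3 CPM in Listeria and 30.3 CPM in naive members. The lymphoid priming list had medians of -0.60 in the Listeria and -0.49 in the naive library. Dntt, the template-free polymerase of receptor rearrangement, had 130 CPM in Listeria and 125 CPM in naive members, against 232 CPM in Listeria and 273 CPM in naive Flt3-positive progenitors, and Rag1, part of the recombinase, had 3 UMIs in Listeria and 20 UMIs in naive members. Mef2c, a factor of lymphoid and myeloid progenitors, was lower by log2 ratios of -1.45 in the Listeria and -1.54 in the naive library. Satb1, a chromatin organiser of lymphoid cells, was higher by 0.71 in the Listeria and 1.05 in the naive library.

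Immediate early genes, which rise within minutes of a stimulus, were more often lower in progenitor-like cells of the Listeria library. Of 21 immediate early genes tested, 10 in the Listeria and 2 in the naive library were more than 2-fold lower, beside 11.2% and 7.16% of all genes, with medians of -0.99 and -0.41, so the naive count is near that of all genes. Klf2, a factor of lymphocyte quiescence and trafficking, had 282 CPM in Listeria and 294 CPM in naive members, against 1174 CPM in Listeria and 686 CPM in naive Flt3-positive progenitors. Egr1, a factor induced by growth signals, had log2 ratios of -1.90 in the Listeria and -0.85 in the naive library. Between Listeria and naive Flt3-positive progenitors the list had a median log2 ratio of 0.09, beside 0.11 over all genes tested. There 1 listed gene was more than 2-fold higher and 1 lower, beside 1.41% and 0.995% of all genes. Fos, given below, was the higher one. Of 16 interferon response genes tested in the Listeria library, 6 were more than 2-fold lower and 1 higher, beside 11.2% and 4.57% of all genes (median -0.47). Of 16 in the naive library, 5 lay below and 3 above that limit, beside 7.16% and 5.18% of all genes (median -0.22). Ifit1 was higher in both, with log2 ratios of 1.69 in the Listeria and 3.10 in the naive library, but reached the minimum level only through the progenitor-like cells. Isg15 and Rsad2 had 2.09 and 2.04 in the naive library, and 0.14 and -0.09 in the Listeria library.

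**Figure D3:**
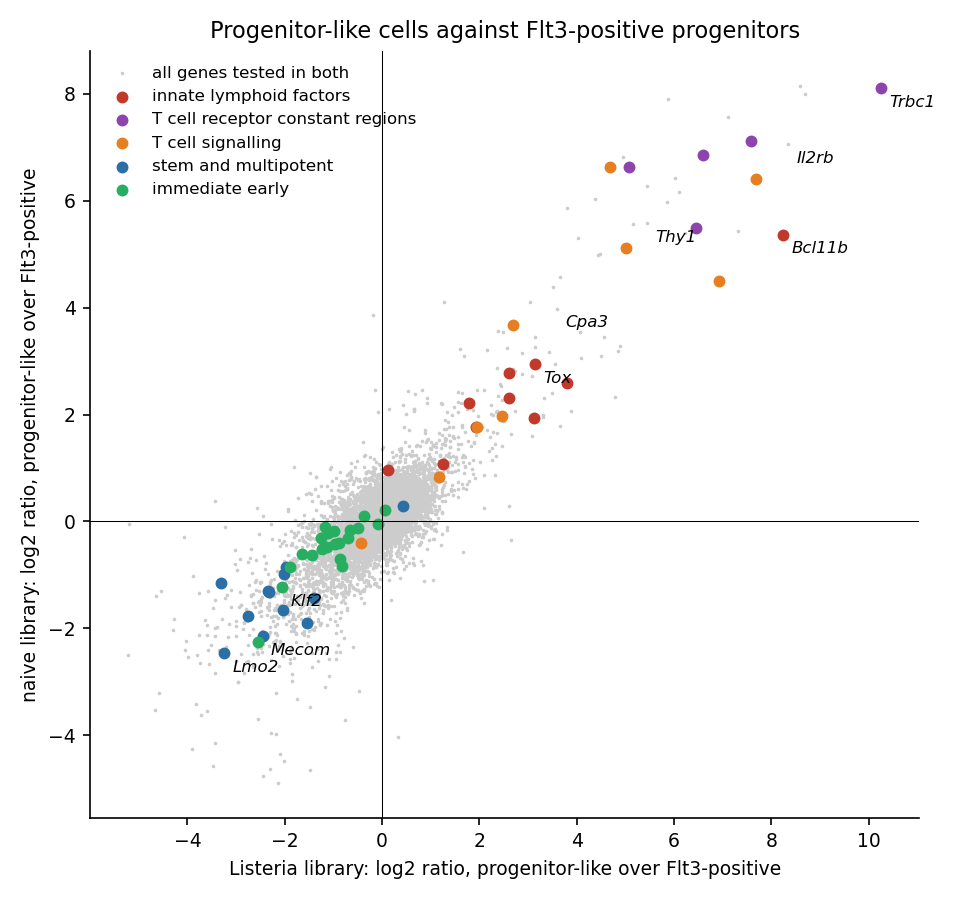
Log2 ratio of progenitor-like over Flt3-positive cells for each gene tested in both libraries, with the Listeria library on the horizontal and the naive library on the vertical axis; colours mark 5 gene lists. A gene with 0 UMIs in Flt3-positive cells is drawn at its lower bound. Constant regions of the T cell receptor and most innate lymphoid and T cell signalling genes lie to the upper right, and stem genes other than Myb to the lower left.

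Markers of other lineages were present in part of the progenitor-like cells. After thinning to 2500 UMIs, at least 3 UMIs of the B lineage list were found in 11% of Listeria and 19.3% of naive members. The shares were 3.12% in Listeria and 19.8% in naive Flt3-positive progenitors. Ighm, the antibody heavy chain, had 256 CPM in Listeria and 929 CPM in naive members, against 104 CPM in Listeria and 249 CPM in naive Flt3-positive progenitors. Granule and myeloid genes had a median log2 ratio against Flt3-positive progenitors of -3.22 in the Listeria and -0.07 in the naive library, while their summed level was 101 CPM in Listeria and 5250 CPM in naive members, against 764 CPM in Listeria and 1529 CPM in naive Flt3-positive progenitors. S100a8, a neutrophil granule protein, had 17.5 CPM in Listeria and 2318 CPM in naive members, and 1 naive cell held 42.5% of those UMIs. Igkc, an antibody light chain, had 28.2 CPM in Listeria and 2719 CPM in naive members, with 52.1% in 1 naive cell, and in RNA outside cells it stood at 4131 CPM in the Listeria and 5174 CPM in the naive library. In the Listeria library 1 cell held 87.0% of the Pf4 and 64.3% of the Cd74 UMIs of the members. Cells with at least 10 UMIs of the granule list or of Igkc were 1 of 118 in the Listeria and 12 of 243 in the naive library. Without them the granule median in the naive library was -3.25, a fall built into leaving out cells by that list. Ighm stood at 258 CPM in Listeria and 292 CPM in naive members without them. Of the 10 innate lymphoid factors, 9 were more than 2-fold higher in both libraries, with the same limit for Bcl11b and Lef1 as above. No doublet caller was run, so a droplet with 2 cells may remain among these, and its part was not tested.

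**Figure D4:**
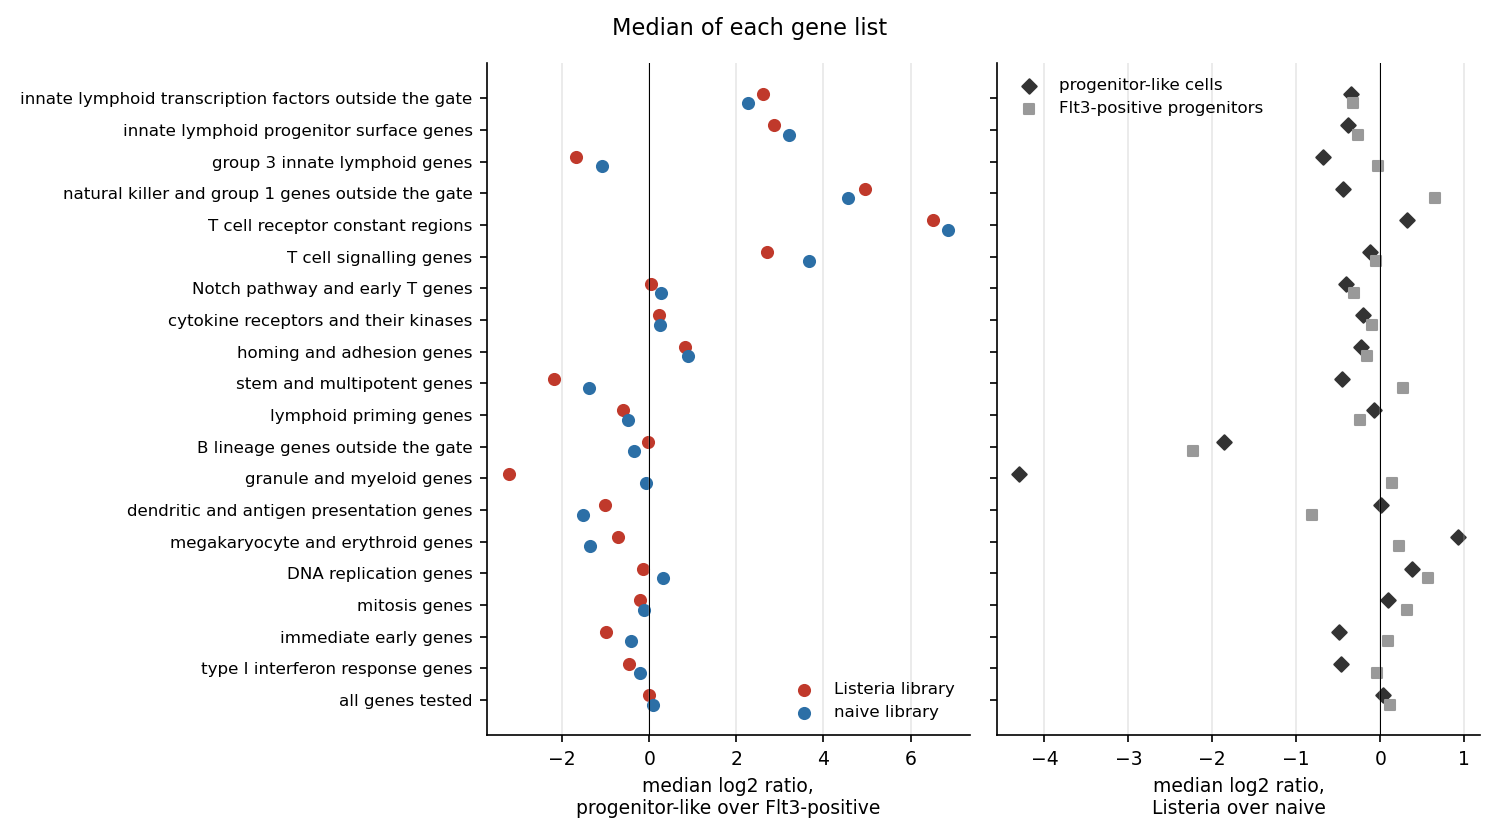
Median log2 ratio of each gene list with at least 3 tested genes in both comparisons on the left. Left, progenitor-like over Flt3-positive cells in the Listeria (red) and naive (blue) libraries. Right, Listeria over naive in progenitor-like cells (diamonds) and in Flt3-positive progenitors (squares). On the right the group 3 diamond and the NK and group 1 square rest on 2 genes each. The constant regions had 0 genes tested in Flt3-positive progenitors and no square. Lists such as the constant regions, NK and T cell signalling genes hold genes that reached the minimum level only through progenitor-like cells. The bottom line gives the same median over all genes tested, which was 0.00 and 0.09 on the left.

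Mitosis genes were found in a share of progenitor-like cells close to that of Flt3-positive progenitors and below that of B-lineage cells. After thinning to 2500 UMIs, at least 2 UMIs of the mitosis list were found in 8 of 118 Listeria members (6.78%, 2.97 to 12.9) and 23 of 243 naive members (9.47%, 6.09 to 13.9), against 9.35% of Listeria and 8.24% of naive Flt3-positive progenitors and 86.2% of Listeria and 79.3% of naive B-lineage cells. Without thinning the shares were 27.1% in Listeria and 22.2% in naive members, against 28.9% in Listeria and 23.3% in naive Flt3-positive progenitors. At least 2 UMIs of the replication list were found in 40.7% of Listeria (31.7 to 50.1) and 37.0% of naive members (31.0 to 43.4) after thinning, and in 40.5% of Listeria and 34.3% of naive Flt3-positive progenitors. In the Listeria library 1 cell held 41.0% of the Mki67 UMIs of the members.

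Within the set, both Zbtb16 and Tcf7 were detected in 87 Listeria (73.7%, 64.8 to 81.4) and 171 naive members (70.4%, 64.2 to 76.0). Zbtb16 alone was detected in 13 Listeria (11%) and 25 naive members (10.3%), and Tcf7 alone in 18 Listeria (15.3%) and 47 naive members (19.3%). Members with Tcf7 alone had a lower median depth than those with both (7032 against 8219 UMIs in the Listeria and 5711 against 7925 in the naive library), so a missed UMI of Zbtb16 and its absence cannot be told apart in a single cell.

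Dntt, Bcl11b and Thy1, picked after their values were seen, were higher in members with Tcf7 alone than in those with both factors, and Tox was lower. Dntt had 294 CPM in Listeria and 427 CPM in naive members with Tcf7 alone, against 114 CPM in Listeria and 78.4 CPM in naive members with both factors, and it was found in 70.2% of the naive cells with Tcf7 alone, against 24.6% of those with both. Bcl11b had 264 CPM in naive members with Tcf7 alone, against 55.8 CPM in those with both, and 143 CPM against 93.7 CPM in the Listeria library. Thy1 had 158 CPM in Listeria and 157 CPM in naive members with Tcf7 alone, against 53.2 CPM in Listeria and 40.6 CPM in naive members with both. Tox had 128 CPM in Listeria and 164 CPM in naive members with Tcf7 alone, against 279 CPM in Listeria and 280.0 CPM in naive members with both. Mki67, a protein of dividing cells, had 483 CPM in Listeria and 394 CPM in naive members with Tcf7 alone, against 19.0 CPM and 33.9 CPM in those with both, but 1 cell held 53.1% of these UMIs in the Listeria and 24.6% in the naive library. Mitosis genes passed 2 UMIs after thinning in 10 of 47 naive members with Tcf7 alone (21.3%, 10.7 to 35.7), against 11 of 171 with both (6.43%, 3.25 to 11.2), and in 2 of 18 Listeria members with Tcf7 alone (11.1%, 1.38 to 34.7), against 5 of 87 with both (5.75%, 1.89 to 12.9), where the intervals overlap widely. S100a8 had 8866 CPM in naive members with Tcf7 alone, 73.5% of it in 1 cell.

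Some genes of the group 2 list, picked after their values were seen, were higher in naive members with Zbtb16 alone. Il17rb had 101 CPM, Arg1 67.6 CPM, Areg 56.4 CPM and Hs3st1 33.8 CPM in these members, against 17.3, 17.9, 9.31 and 13.3 CPM in naive members with both factors. Each rests on 6 to 18 UMIs in 25 cells, and the intervals of Hs3st1 overlap. Il13 and Il5 had no UMI there and Klrg1 had 1. Of genes on other lists, Rora had 1443 CPM and Il7r 395 CPM in the same cells, against 695 CPM and 138 CPM in naive members with both factors. Il1rl1 had 14 of its 16 UMIs in naive members there, in 32.0% of the 25 cells, and Icos, a costimulatory receptor, had 113 CPM, against 9.31 CPM in members with both. Gata3, a gate gene given as a description, had 457 CPM, against 156 CPM. In those 25 cells Elane, a neutrophil protease, had 851 CPM, 99.3% of it in 1 cell. Among the 13 Listeria members with Zbtb16 alone, Il1rl1, Icos and Il17rb had no UMI, which with 105193 UMIs in all allows little to be said. Cpa3 ran the other way, at 19.0 CPM in Listeria and 39.5 CPM in naive members with Zbtb16 alone, against 224 CPM in Listeria and 250 CPM in naive members with both.

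Between the libraries the members differed in fewer genes than they did from Flt3-positive progenitors. Of 7968 genes tested, 159 (2%) were more than 2-fold higher and 302 (3.79%) more than 2-fold lower in Listeria members than in naive members, 5.79% either way. In Flt3-positive progenitors, set beside them after the members' values were seen, 115 of 8141 genes (1.41%) were more than 2-fold higher and 81 (0.995%) more than 2-fold lower in the Listeria library, 2.41% either way. The smaller number of member cells widens the counting error, so the counts of both populations are not on the same footing. None of the 10 innate lymphoid factors passed 2-fold either way, with a median log2 ratio of -0.34 in members and -0.32 in Flt3-positive progenitors, beside 0.03 and 0.11 over all genes tested.

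Cd7, a surface protein of early lymphoid cells, was the lowest in Listeria members among genes of at least 50 CPM in 1 library and 40 UMIs that pass the limit on single cells, at 43.8 CPM, against 138 CPM in naive members (log2 ratio -1.65, -2.14 to -1.19). In Flt3-positive progenitors its log2 ratio was -1.53 (-2.46 to -0.69). Il7r had a log2 ratio of -1.0 (-1.37 to -0.65) in members and -1.27 (-2.01 to -0.57) in Flt3-positive progenitors. Ltb was lower in Listeria members by -1.02 (-1.41 to -0.65), while its ratio in Flt3-positive progenitors was -0.14 (-0.35 to 0.07). Rora was lower by -0.52 (-0.67 to -0.38) in members and -0.34 (-0.58 to -0.12) in Flt3-positive progenitors. Trbc1 was higher by 0.23 (0.12 to 0.33) in Listeria members, and Trbc2 lower by -0.73 (-1.03 to -0.45).

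The other genes at the low end were Map3k8, Fosl2, Vegfa, Hist1h2ap, Ier5l, Ifitm1, Maff, Tpm4 and Nfkbiz, several of which respond quickly to stimulation of a cell. Fosl2, an AP-1 factor, had 35.0 CPM in Listeria and 105 CPM in naive members, and Nfkbiz, a regulator of NF-kappa-B, had 75.0 CPM in Listeria and 185 CPM in naive members. Hist1h2ap is 1 of many near-identical histone genes, so its count is uncertain. Of 21 immediate early genes, 4 were more than 2-fold lower and none higher in Listeria members, beside 3.79% and 2% of all genes tested. Their median was -0.49, beside 0.09 in Flt3-positive progenitors. Jund had 1229 CPM in Listeria and 2658 CPM in naive members (log2 ratio -1.11), and it was lower in the Listeria library also in Flt3-positive progenitors (-0.64) and in RNA outside cells (1322 CPM in the Listeria and 3219 CPM in the naive library). Atf3 had log2 ratios of -1.27 in members and -0.71 in Flt3-positive progenitors. Fosb and Btg2 had -0.76 and -0.89 in members, and 0.05 and 0.18 in Flt3-positive progenitors. Fos ran the other way, at 0.29 (0.14 to 0.43) in members and 1.19 (1.12 to 1.26) in Flt3-positive progenitors. These genes are known to respond to handling of tissue, and the libraries are single preparations, so the part of handling was not tested.

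Interferon response genes had a median of -0.47 in members over 15 tested genes, and -0.04 in Flt3-positive progenitors. Of the 15, 3 were more than 2-fold lower in Listeria members, beside 3.79% of all genes tested. Isg15, a ubiquitin-like protein induced by interferon, had 15.6 CPM in Listeria and 64.1 CPM in naive members (log2 ratio -2.04, -2.89 to -1.29), and -0.08 (-0.68 to 0.51) in Flt3-positive progenitors. It was found in 9.32% of Listeria and 19.8% of naive members, in 3.39% and 10.3% after thinning, and in 3.45% of Listeria and 6.17% of naive B-lineage cells without thinning, and 1 Listeria cell held 25% of its 16 UMIs. Ifit1, induced by the same pathway, had 22.4 CPM in Listeria and 49.5 CPM in naive members, with 47.8% of the Listeria UMIs in 1 cell.

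At the high end stood Tcrg-C1, Nmt1, Aars, Adgrl2, Fgf3, Ccny, Epb41l2, Itga2b, Ndufs1 and Mcm6. Tcrg-C1 had 86.6 CPM in Listeria and 33.8 CPM in naive members (log2 ratio 1.36, 0.88 to 1.84), but it is a near copy of Tcrg-C2, and 1 Listeria cell held 19.1% of its UMIs. Fgf3, a fibroblast growth factor, had 95.4 CPM in Listeria and 47.9 CPM in naive members (0.99, 0.57 to 1.41), against 4.28 CPM in Listeria and 1.5 CPM in naive Flt3-positive progenitors and none in T cells. Nmt1, which attaches myristate to proteins, had 79.8 CPM in Listeria and 33.8 CPM in naive members, and it was higher by 0.96 (0.61 to 1.31) in Flt3-positive progenitors as well. Mcm6, a subunit of the replicative helicase, had 144 CPM in Listeria and 78.2 CPM in naive members. The replication list had a median of 0.38 in members and 0.57 in Flt3-positive progenitors.

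**Figure D5:**
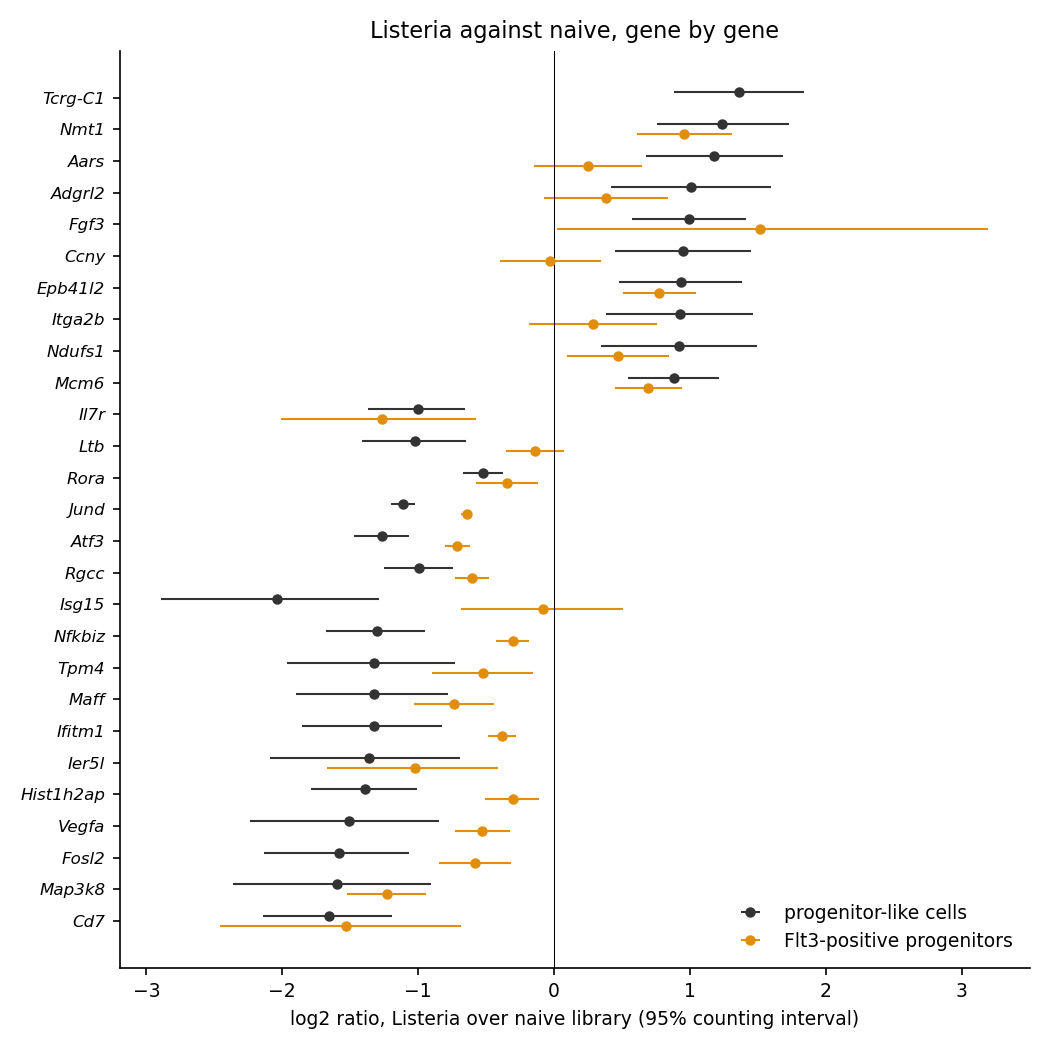
Log2 ratio of the Listeria over the naive library for 27 genes in progenitor-like cells (dark) and in Flt3-positive progenitors (orange), with lines for 95% counting intervals; genes with a population at 0 are not drawn there. Cd7, Il7r and Atf3 lie below 0 in both populations, while Ltb and Isg15 lie below 0 in progenitor-like cells with intervals that include 0 in Flt3-positive progenitors.

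Granule, B lineage and plasma cell genes had the most negative medians between the libraries, at -4.30, -1.86 and -3.25 in members. These rest on 7, 3 and 2 tested genes. Without the 1 Listeria and 12 naive cells with at least 10 UMIs of the granule list or of Igkc, these medians were -0.59, -0.18 and -1.45. The granule list thus helped choose the cells left out. The last median lies between Jchain at -3.21 and Xbp1 at 0.31, so the 2 plasma cell genes did not share a direction. The ratios of Cd7, Il7r and Isg15 without those cells were -1.78, -1.08 and -2.12.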

How the data were processed

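Droplet 3′ single-cell RNA libraries were analysed from the UMI counts per gene and barcode that the authors deposited as unfiltered matrices. Per the submitters' processing notes they were made with Cell Ranger 3.0.2 on mm10, and other settings of the counting are not given in the sources used here. The labels name a 3′ v2 kit, while the deposited barcode list holds 6794880 entries; which is right was not tested. The counts carry no normalization.

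Cells were barcodes with at least 2500 UMIs, at least 500 genes and at most 10% mitochondrial UMIs. Counts were summed over the cells of a population and divided by their total. Intervals at 95% were exact: Poisson for levels, Clopper-Pearson for shares and the binomial split of 2 sums for ratios. They cover counting error only. With 1 library per group no p-value was computed, and genes past 2-fold were counted instead. Genes at 0 were set to a floor of 3 counts in a population. For shares at equal depth, each cell was thinned to 2500 UMIs. The code was tested on simulated data. No doublets were removed.

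The members and gene lists were chosen with earlier results of these data known. Named genes were the 12 highest and 12 lowest by the weaker library's ratio to Flt3-positive progenitors, and the 10 highest and 10 lowest between the libraries, among genes of at least 50 CPM (between libraries also 40 UMIs). Mitochondrial, ribosomal, unnamed, antibody, sex-linked and gate genes and genes with over 20% of their UMIs in 1 cell were left out. Up to 4 genes of each of the 22 lists were added by level; others were named after their values were seen, and so was the comparison of the libraries within Flt3-positive progenitors. Alternatives changed the cell, gate, depth, doublet, free RNA and low-count choices and the scaling (edgeR 4.0.16 TMM and DESeq2 1.42.0 size factors, used for scaling only). Coordinates and sequences came from GENCODE vM21, which held 30934 of 31053 gene IDs. Python 3.11.15, numpy 2.4.6, scipy 1.17.1, pandas 2.3.3, matplotlib 3.10.9 and R 4.3.3 were used. Some genes of the lists are not reported here.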

Additional observations from a re-analysis of the deposited data

Results flagged for a closer look

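For 5 named or listed genes with intervals that leave out 0 in both libraries, the ratio of progenitor-like over Flt3-positive cells lay on opposite sides of 0 in the libraries, and the difference between the libraries was not tested. Ltb had a log2 ratio of -0.53 in the Listeria and 0.35 in the naive library. Hist1h2ap, a histone gene with near-identical copies, had -0.78 in the Listeria and 0.31 in the naive library, with 65.2 CPM in Listeria and 171 CPM in naive members. Junb, an AP-1 factor, had -0.38 in the Listeria and 0.10 in the naive library. Mki67 had -0.45 in the Listeria and 0.29 in the naive library, and 1 Listeria cell held 41.0% of its UMIs. Under other processing choices the naive ratio ran from -1.18 to 0.70 for Mki67 and from -0.058 to 0.875 for Ltb. Rrm2, a subunit of ribonucleotide reductase, had -1.81 in the Listeria and 1.01 in the naive library, from 3 UMIs in Listeria and 27 UMIs in naive members.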

How the results depend on the processing

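The log2 ratio of the member shares, Listeria over naive, stayed between -0.58 and -0.77 under 10 alternatives. The shares themselves moved to 2.96% in the Listeria and 4.67% in the naive library with a gate sum of 3, to 1.78% and 3.03% with a gate sum of 6, to 1.80% and 2.68% with Zbtb16 and Tcf7 both required, and to 1.16% and 1.88% with cells thinned before the gate. Without the filter on low counts and with a small pseudocount, 1612 genes were more than 2-fold higher and 2162 lower against Flt3-positive progenitors in the Listeria library, 2194 and 2076 in the naive library, and 1161 and 1426 between the libraries. With a minimum of 50 CPM, chosen after seeing the data, these counts were 115 and 214, 145 and 162, and 6 and 50, as fewer genes were tested. The median of the group 3 list changed sign without the filter, to 1.77 in the Listeria and 2.49 in the naive library. Against Flt3-positive progenitors in the naive library, S100a8 and S100a9 changed sign to -0.53 and -0.64 with a gate sum of 6. Elane, S100a8 and S100a9 changed sign to -0.10, -0.057 and -0.17 without the top 5% of cells by UMIs, and to -0.33, -4.08 and -4.20 without the cells of other lineages, an alternative chosen after seeing the data. Between the libraries, Ly6c2 changed sign to 0.064 without the top 5% of cells and to 0.35 without the cells of other lineages, where Elane stood at 0.10. With counts thinned, Hbb-bt against Flt3-positive progenitors in the Listeria library was 0.36, and between the libraries Ccr7 was 0.31 and Adgrl2 was -0.37. The cause of these changes was not tested. The cells of other lineages were chosen by the granule list or Igkc, so granule genes had to fall in the members without them. Over all settings 14 values of single genes that were at least 2-fold in the main setting changed sign. Of the others, 681 moved beyond their interval and 9105 did not. Sign changes of smaller ratios were not counted but occurred, as for Mki67 against Flt3-positive progenitors in the naive library (-1.18 to 0.70). No paired analysis was possible because each group has 1 library, and for the same reason no library could be left out.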

Other observations

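Of 4 tested dendritic and antigen presentation genes, 2 in the Listeria and 4 in the naive library were more than 2-fold lower in progenitor-like cells than in Flt3-positive progenitors, beside 11.2% and 7.16% of all genes, with medians of -1.02 and -1.51. Of 4 tested megakaryocyte and erythroid genes, 2 in the Listeria and 3 in the naive library were more than 2-fold lower, beside the same shares of all genes. Among these, Hbb-bt in both libraries and Pf4 in the naive library reached the minimum level only through the Flt3-positive progenitors. Itga2b, a platelet integrin chain, was higher by log2 ratios of 1.24 in the Listeria and 0.60 in the naive library. Cst3, a protease inhibitor abundant in dendritic cells, had 199.6 CPM in Listeria and 166 CPM in naive members, against 504 CPM in Listeria and 861 CPM in naive Flt3-positive progenitors, with 34.6% of the Listeria members' UMIs in 1 cell. Car2, a carbonic anhydrase of erythroid and other cells, had 148 CPM in Listeria and 159 CPM in naive members, against 497 CPM in Listeria and 420.2 CPM in naive Flt3-positive progenitors. Lmo4, a LIM domain factor, ran the other way, with 195 CPM in Listeria and 246 CPM in naive members, against 62.0 CPM in Listeria and 46.8 CPM in naive Flt3-positive progenitors.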
